A study of Mus musculus with 20 samples.

Results

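The genes of the lipid droplet surface described here were 10 in number: the CIDE family (Cidea, Cideb and Cidec), the perilipins (Plin1, Plin2, Plin3, Plin4 and Plin5) and the fat storage-inducing transmembrane genes Fitm1 and Fitm2. They were taken by name from the 28786 gene names on Agilent mouse 44k arrays, and each was read by its brightest probe. WT(HFD) and CD44KO(HFD) mice were compared, both male C57BL/6 mice aged 7 months that had spent 21 weeks on a diet with 35% fat (the HFD). CD44KO mice lack CD44, a cell surface receptor for hyaluronan and osteopontin, in every cell, and the CD44-deficient strain had been backcrossed onto C57BL/6J. RNA of liver and white adipose tissue (WAT) was read from 5 samples per tissue and genotype, 1 array per sample. This gave 20 arrays in 4 groups of 5. All groups carried the diet, and no animal on normal chow was on these arrays. The labels do not say whether the liver and the WAT with the same number came from the same mouse.

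Triglyceride is stored in cells as a droplet that buds from the endoplasmic reticulum and is wrapped in a single layer of phospholipid, on which the perilipins form a coat that governs access of lipases. The CIDE proteins sit where droplets touch and pass lipid from smaller to larger droplets, and the FIT proteins act in the endoplasmic reticulum membrane when droplets form. Adipocytes hold one large droplet and use Plin1, Plin4, Cidec and, in brown fat, Cidea. Hepatocytes hold small droplets coated by Plin2, Plin3 and Plin5, and CIDE genes that are typical of fat come on in the fatty liver under the nuclear receptor PPARγ.

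The values are the log2 of the processed signal of a probe minus the 75th percentile of that array, so that 0 stands for the 75th percentile and 1 unit for a 2-fold difference. Levels of different probes are not comparable, since probes differ in how well they bind. All 10 genes had 1 probe by name or accession, and Fitm2 had a second, dimmer probe with the name D930001I22Rik but another accession, which is given beside it. Several genes stood under older names in the files: Plin (Plin1), Adfp (Plin2), M6prbp1 (Plin3), S3-12 (Plin4), 2310076L09Rik (Plin5), 1110028A07Rik (Fitm1) and D930001I22Rik (Fitm2). In build mm7, which the files use, the probe for Cidec lay at chr6:113585627-113585686, that for Plin1 at chr7:75590467-75590526, that for Plin2 at chr4:86060498-86060557 and that for Fitm2 at chr2:163207466-163207525. The probes for Plin4 (chr17:54259939-54259998) and Plin5 (chr17:54269931-54269990) lay 9.93 kb apart, and that for Plin3 (chr17:54437255-54437314) lay 167 kb further on. Fitm1 (chr14:50443193-50443619, a longer span than the other probes) and Cideb (chr14:50622503-50622562) were also neighbours, 179 kb apart. The exon or UTR that a probe reads was not given in the sources used here.

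The promoters are shown for the genes on which the comparisons below turn. These are Cidec and Plin4, with large differences in liver, and Plin5. For Plin5 alone a test of whether the genotype difference differed between tissues passed, and it did not pass in every setting. Plin2 is shown as the only one of the genes examined with a match to the motif searched. Each promoter is the 250 bases before a RefSeq start on build GRCm38.p6, written 5′ to 3′ on the gene's strand. Capitals mark a match to the direct repeat bound by PPAR and RXR, AGGTCA repeated in the same direction after 1 base of any kind, with up to 2 mismatches on either strand, or to its half-site AGGTCA alone.

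Cidec (chr6:113435761-113436010, minus strand): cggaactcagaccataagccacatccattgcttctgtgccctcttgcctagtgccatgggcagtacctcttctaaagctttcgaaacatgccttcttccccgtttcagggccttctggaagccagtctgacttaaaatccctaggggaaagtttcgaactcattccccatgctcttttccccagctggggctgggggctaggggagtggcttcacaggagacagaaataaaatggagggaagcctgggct
Plin4 (chr17:56109783-56110032, minus strand): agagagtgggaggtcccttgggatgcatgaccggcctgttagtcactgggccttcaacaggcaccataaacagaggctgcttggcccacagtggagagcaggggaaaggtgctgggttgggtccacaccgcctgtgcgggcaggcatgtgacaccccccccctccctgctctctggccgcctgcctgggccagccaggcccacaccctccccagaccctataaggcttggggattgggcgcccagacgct
Plin5 (chr17:56117549-56117798, minus strand): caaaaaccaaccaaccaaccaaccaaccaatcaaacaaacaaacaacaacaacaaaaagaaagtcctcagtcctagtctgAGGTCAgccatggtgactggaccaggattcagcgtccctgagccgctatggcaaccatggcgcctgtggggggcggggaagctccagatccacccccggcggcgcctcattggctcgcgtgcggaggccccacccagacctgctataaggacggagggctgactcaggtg
Plin2 (chr4:86670060-86670309, minus strand): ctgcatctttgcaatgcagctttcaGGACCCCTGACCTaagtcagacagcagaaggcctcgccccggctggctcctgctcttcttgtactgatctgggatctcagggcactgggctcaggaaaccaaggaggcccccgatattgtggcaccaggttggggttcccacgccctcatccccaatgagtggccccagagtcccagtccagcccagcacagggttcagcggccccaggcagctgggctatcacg

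Promoters of 9 of the 10 genes were in the table used, which has no entry for Cidea, and Cidec and Plin5 had a second start each. Over the 300 bases from 250 before to 50 after a start, the direct repeat with up to 2 mismatches was in the promoter of Plin2 alone among these genes, on the minus strand of the gene from position -225, and in 3.86% of all 32851 promoters. The exact half-site AGGTCA was in the promoters of Plin2, where it overlapped that match, and of Plin5, where it began at -170 from one start and at 13 from the other, and in 16.3% of all promoters. No match says only that these letters are not in the window.

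The labels were checked on Cd44 itself. On the CD44KO(HFD) arrays the brightest of its 3 probes read -4.19 to -3.24 in liver, where the WT(HFD) arrays read 0.11 to 0.83. In WAT it read -0.67 to -0.35 against 3.55 to 4.56, so that no array overlapped the other genotype. Its mean fell from 0.48 ± 0.28 (SD, n = 5) to -3.74 ± 0.41 (n = 5) in liver and from 4.07 ± 0.37 (n = 5) to -0.51 ± 0.13 (n = 5) in WAT, a fall that another probe shared and that the dimmest probe did not (0.20 in liver, adjusted p = 0.888, limma), being well above background on 3 of 5 WT(HFD) livers. The 75th percentile of a liver array was a signal of 432.7 to 574.6, and between 57.4% and 61.9% of spots were well above background. On the WAT arrays it lay between 1541 and 2792. WT(HFD) WAT replicate 1 stood apart, with 89.5% of spots well above background against 63.2% to 69.5% on the other 9 WAT arrays and a median signal of 897 against 117 to 224, so the genotype differences of these genes in WAT and the tissue differences in WT(HFD) mice are also given without it. The 5 arrays of a group were taken as separate mice, and they set the precision. In whole tissue, fewer cells of a type and less RNA per cell cannot be told apart.

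In liver, Cidec, a gene that adipocytes use, was lower in CD44KO(HFD) than in WT(HFD) mice by different amounts in different animals, Plin5 was lower by a small and even amount, and the hepatocyte gene Cideb was slightly higher. Of the 9 genes tested, Cidec and Plin5 fell, Cideb rose and 6 did not pass the test (limma, Benjamini-Hochberg adjustment, threshold 0.05). Over all 24689 probes tested in liver 13.6% passed, 5.75% lower and 7.85% higher. The median log2 fold change was -0.36 over the 9 genes, 7 of them below 0, and 0.08 over all probes. A p under 0.05 before adjustment was reached by 6 of the 9 genes and by 7946 of the probes.

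Cidec, also called Fsp27, joins droplets into large ones in white adipocytes. Its log2 signal in the WT(HFD) livers, replicates 1 to 5, was 6.28, 6.38, 6.42, 5.84 and 6.07. In the CD44KO(HFD) livers it was 3.67, 1.78, 5.86, 4.04 and 5.05. The WT(HFD) livers lay within 0.58 of each other, all CD44KO(HFD) livers lay below the WT(HFD) mean, and the groups overlapped by 1 animal, CD44KO(HFD) replicate 3. On average the signal was 4.35-fold lower (log2 -2.12, SE 0.62), with an adjusted p of 0.0486 by limma, where SE is the standard error.

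Cidea, the family member of brown fat that also appears in fatty liver, had 5.33, 5.89, 6.21, 6.00 and 5.93 in the WT(HFD) livers. The CD44KO(HFD) livers had 2.67, 1.09, 5.66, 3.99 and 5.22. All of these lay below the WT(HFD) mean, and only replicate 3 lay within the WT(HFD) range. A mean difference of -2.15 (SE 0.75) did not pass the test (adjusted p = 0.0822, limma), with a 95% interval from -3.82 to -0.47.

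Cideb, the member of hepatocytes that acts in the lipidation of VLDL, differed the other way. It was at 3.09, 3.13, 3.23, 3.32 and 3.39 in WT(HFD) and at 3.60, 3.46, 3.38, 3.76 and 3.63 in CD44KO(HFD) livers. All CD44KO(HFD) livers were above the WT(HFD) mean, and replicate 3 alone lay just inside the WT(HFD) range. The mean difference was 0.34 (SE 0.093), or 1.26-fold, with an adjusted p of 0.0416 by limma.

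**Figure D1:**
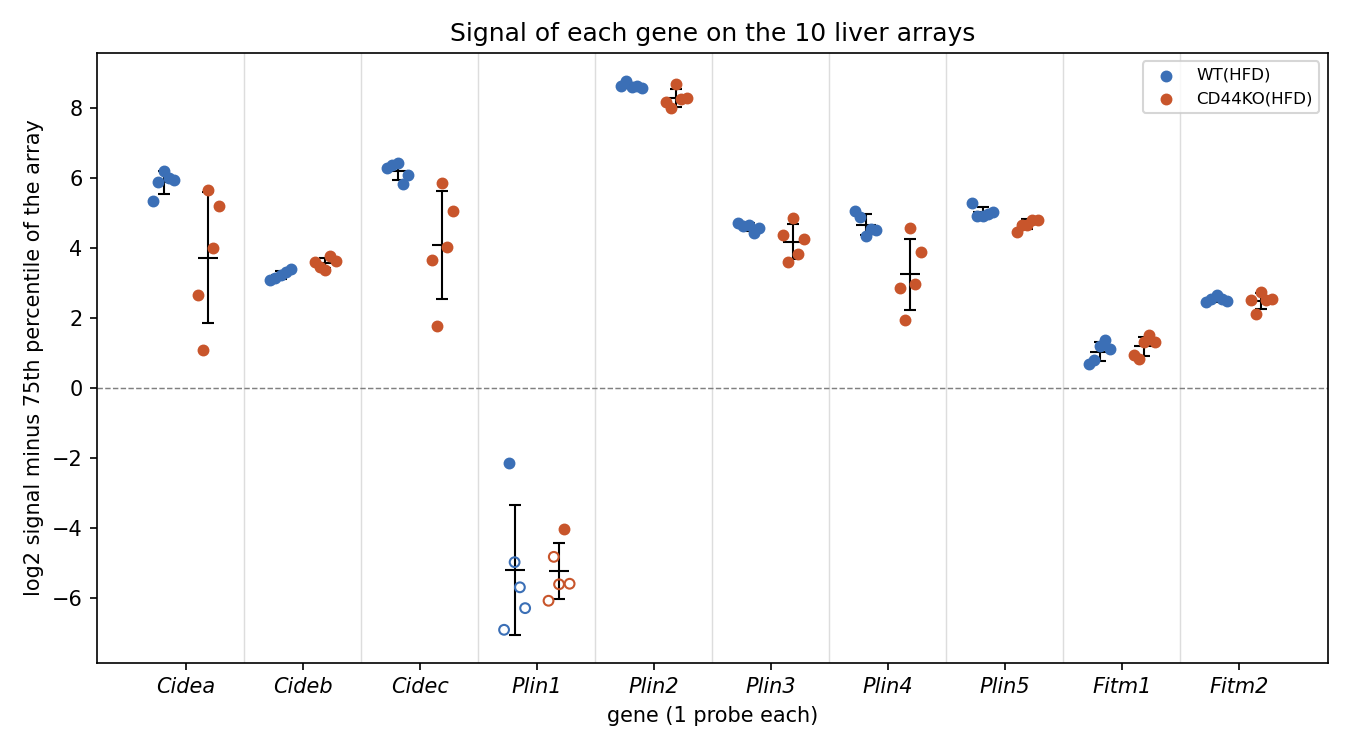
Log2 signal minus the 75th percentile of the array for the 10 genes on the 5 WT(HFD) (blue) and 5 CD44KO(HFD) (orange) liver arrays; each point is 1 array, open points are not well above background, and bars are the mean and SD. The CD44KO(HFD) points of Cidea, Cidec and Plin4 spread over 4.57, 4.09 and 2.64 units, while Plin1 was well above background on 1 array of each genotype.

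Among the perilipins, Plin4, an adipocyte coat protein with a long repeated stretch, had 5.06, 4.90, 4.33, 4.54 and 4.52 in WT(HFD) and 2.87, 1.94, 4.58, 2.97 and 3.90 in CD44KO(HFD) livers. Again replicate 3 alone among the CD44KO(HFD) livers lay within the WT(HFD) range. With a mean difference of -1.42 (SE 0.42), Plin4 lay just outside the threshold (adjusted p = 0.0505, limma).

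Plin5, the perilipin of oxidative tissues that ties droplets to mitochondria, was the only gene of the 9 whose liver groups did not overlap. It was at 5.29, 4.91, 4.91, 4.98 and 5.04 in WT(HFD) and at 4.46, 4.67, 4.66, 4.80 and 4.80 in CD44KO(HFD) livers, and groups that did not overlap in this direction made up 4.22% of all probes. Plin5 was 1.27-fold lower (log2 -0.34, SE 0.098), with an adjusted p of 0.0457 by limma. Unlike those of Cidec, the replicates of both genotypes were close, with an SD of 0.16 in WT(HFD) and 0.14 in CD44KO(HFD).

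Plin2, or adipophilin, is the main droplet coat of hepatocytes and is held on droplets while they are filled. It had 8.63, 8.78, 8.61, 8.64 and 8.57 in WT(HFD) and 8.18, 7.99, 8.70, 8.25 and 8.30 in CD44KO(HFD) livers, of which replicate 3 alone lay in the WT(HFD) range. The mean difference of -0.36 (SE 0.12) did not pass (adjusted p = 0.0681, limma). Plin3, or TIP47, a coat protein that moves between cytosol and new droplets, ranged from 4.44 to 4.73 in WT(HFD) and from 3.60 to 4.86 in CD44KO(HFD) livers, and differed by -0.42 on average (SE 0.21, adjusted p = 0.187).

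Plin1, the coat protein through which adipocytes control lipolysis, was well above background on 1 of 5 liver arrays in each genotype and was not tested in liver. These arrays were WT(HFD) replicate 2, at -2.15, and CD44KO(HFD) replicate 4, at -4.03. On the same WT(HFD) array the adipocyte hormone gene Adipoq was also well above background, at -4.62, and in CD44KO(HFD) livers it was so on replicate 2, at -3.46. Retn, another adipocyte hormone gene, was well above background on WT(HFD) replicate 5, at -4.71. It was also so on CD44KO(HFD) replicates 3 and 5, at -2.13 and -1.80. The adipocyte genes Lep and Adrb3 were not well above background on any liver array.

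Fitm1 and Fitm2 did not pass the test in liver. Fitm1, the form known best from muscle, had a mean of 1.04 ± 0.28 (SD, n = 5) in WT(HFD) and 1.19 ± 0.28 (n = 5) in CD44KO(HFD) livers, with a 95% interval of the difference from -0.22 to 0.52. Fitm2, the more widely used form, had 2.55 ± 0.073 (n = 5) and 2.49 ± 0.23 (n = 5), with an interval from -0.30 to 0.18. By its second probe the difference was -0.35, which limma did not call either (adjusted p = 0.115).

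Within the CD44KO(HFD) livers several of these genes shared an order of animals. Replicate 2 was the lowest and replicate 3 the highest for each of Cidea, Cidec, Plin2, Plin3, Plin4 and Fitm2. For Cidea, Cidec, Plin2, Plin4 and Fitm2 the whole order was the same: replicate 2, then 1, 4, 5 and 3. Of these, Fitm2 had a genotype difference of only -0.06 in liver (adjusted p = 0.75, limma). Replicates 5 and 3 were both on slide 1, and the part of the slide in this order was not tested. How many of all probes followed the same order was not counted. Plin5, Cideb and Fitm1 had other orders, with the lowest Plin5 in replicate 1 and the highest Cideb and Fitm1 in replicate 4.

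The spread went with this order. The SD over the 5 CD44KO(HFD) livers was 1.55 for Cidec, 1.88 for Cidea and 1.02 for Plin4, which was 6.4, 5.76 and 3.42 times the SD over the WT(HFD) livers. For Plin5, Cideb and Fitm1 the ratio was 0.892, 1.19 and 1.02.

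**Figure D2:**
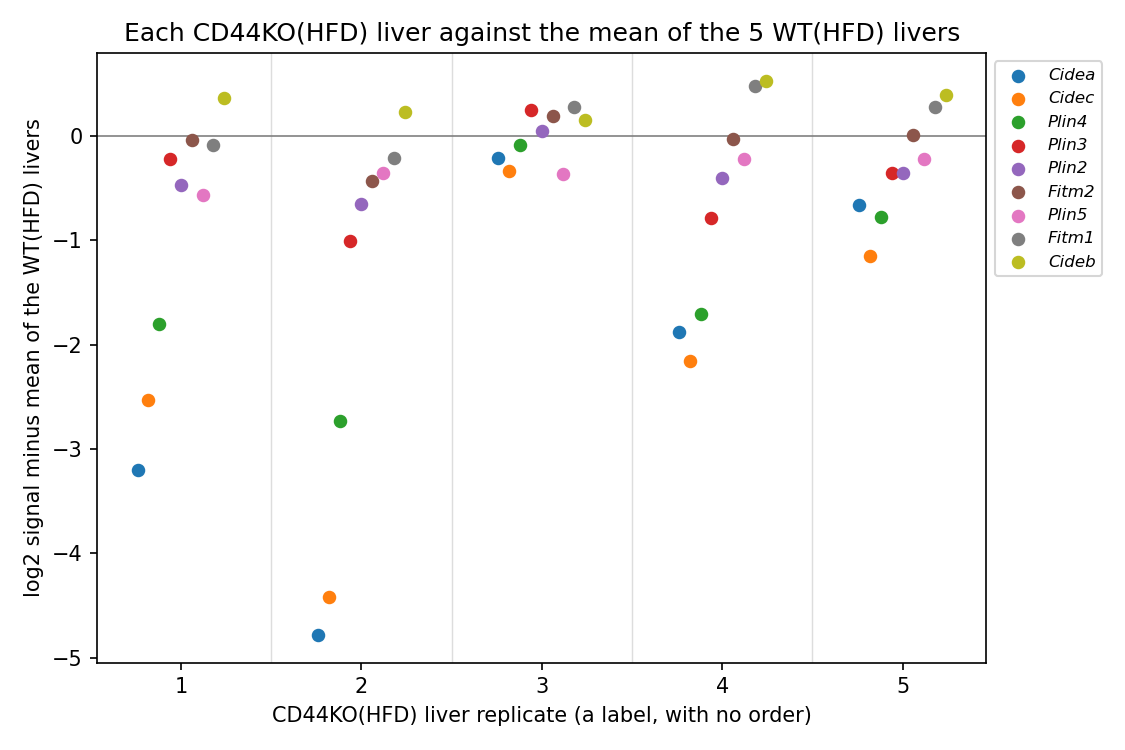
Log2 signal of 9 genes in each CD44KO(HFD) liver minus their mean over the 5 WT(HFD) livers, with the replicate number on the x axis as a label only and 1 point per gene. In replicate 2 Cidea lies at -4.78, Cidec at -4.42 and Plin4 at -2.73, while in replicate 3 they lie at -0.21, -0.34 and -0.089.

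Over the 10 liver arrays of both genotypes, which share slides and hold the genotype difference, Cidec and Plin4 had a Pearson r of 0.97, Cidea and Cidec also 0.97, and Cidec and Plin2 0.94, as a description with n = 10 arrays. Plin5 had 0.64 with Cidec and 0.36 with Plin3, and Cideb had -0.74 with Plin2. Among all probes tested in liver, those most like Cidec included Fam102a (r = 0.992), Synj2 (0.991), Lgals1 (0.978) and Fam241b (0.978). Those most like Plin4 were for Synj2 (0.990), Psrc1 (0.989), Natd1 (0.985), Twf2 (0.980) and Otulinl (0.980). The closest to Cidea were Slc13a4 (0.985), Cidec (0.971), Stap1 (0.970), Cd36 (0.970), a fatty acid transporter, and Ocstamp (0.968).

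The liver calls changed when single animals were left out. In those 10 fits the probes called over the whole array ranged from 924 to 4695, against 3358 with all livers. The values moved little for Plin5 (-0.37 to -0.28) and Cideb (0.29 to 0.38). Without CD44KO(HFD) replicate 3, Cidea (-2.63, adjusted p = 0.0306), Cideb, Cidec (-2.57, adjusted p = 0.0137), Plin2 (-0.47, adjusted p = 0.00881), Plin3 (-0.59, adjusted p = 0.0322) and Plin4 (-1.75, adjusted p = 0.0106) passed, 6 genes by limma, while Plin5 (-0.34, adjusted p = 0.058) did not. Without WT(HFD) replicate 4 only Cideb passed, and without any 1 of the other 8 livers none did. Without CD44KO(HFD) replicate 2, Cidea was at -1.49 and Cidec at -1.54. The slides also differed: on slide 1, which held 2 livers of each genotype, Cidec differed by -0.72, Cidea by -0.19 and Plin4 by -0.55. On slide 2 these were -3.20, -3.41 and -2.27, and on slide 3 -2.75, -3.54 and -1.46. For Plin5 the 3 slides gave -0.43, -0.21 and -0.45. With the slide as a block in the fit Cidec, Plin4 and Plin5 passed (adjusted p = 0.035, 0.0288 and 0.03, limma), and Cideb did not (adjusted p = 0.0524).

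Other genes of droplet metabolism were read from lists by symbol. Over all probes tested in liver 13.6% passed, 5.75% lower and 7.85% higher. The liver counts of this and the following lists stand beside that share, and no list was tested as a set. Among 9 lipolysis genes in liver, Hilpda, an inhibitor of adipose triglyceride lipase (-0.70, adjusted p = 0.0146, limma), and Lipa, the acid lipase of lysosomes (-0.48, adjusted p = 0.0103), fell and none rose. Pnpla2, which encodes adipose triglyceride lipase, and its coactivator Abhd5 had 0.05 and 0.08 and did not pass. Of 13 genes of droplet biogenesis and triglyceride synthesis, the monoacylglycerol acyltransferase gene Mogat2 fell (-1.83, adjusted p = 0.0085) and the acyl-CoA synthetase gene Acsl1 rose (0.59, adjusted p = 0.0284). The seipin gene Bscl2 had 0.10 and did not pass. Of 18 other droplet-associated genes tested, Cavin1, a partner of caveolin (-0.52, adjusted p = 0.026), and Tmem43 (-0.90, adjusted p = 0.0185) fell and none rose.

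Of 16 transcription factors and coactivators, Cebpa (0.28, adjusted p = 0.0384, limma), Srebf1 (0.55, adjusted p = 0.0448) and Nr1h4, the bile acid receptor (0.46, adjusted p = 0.0219), rose and none fell. Pparg, which encodes PPARγ, was at 2.81 in WT(HFD) and 2.52 in CD44KO(HFD) livers (adjusted p = 0.249). Of 12 genes known to respond to PPARγ in fatty liver, Apoa4 (-2.38, adjusted p = 0.0254), Pdk4 (-1.18, adjusted p = 0.0122) and Aqp7 (-1.89, adjusted p = 0.0346), the last well above background on 1 of 5 CD44KO(HFD) livers, fell, while Vldlr (0.67, adjusted p = 0.0476) and Acsl1 rose. Mogat1 (-1.24, adjusted p = 0.0653) and Lpl (-1.09, adjusted p = 0.0682) did not pass.

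Marker genes of other cells moved in the same livers. Of 11 macrophage markers tested, Trem2 (-2.53, adjusted p = 0.0103, limma), Gpnmb (-4.40, adjusted p = 0.0157) and Itgax (-2.01, adjusted p = 0.0284) fell, all of them genes of lipid-laden macrophages, and none rose. In CD44KO(HFD) mice Gpnmb was read well above background in 1 of 5 livers. Markers of resident macrophages in the same list had higher values that did not pass. Among them were Cd163 (2.28, adjusted p = 0.143, limma) and Clec4f (0.75, adjusted p = 0.129). In WT(HFD) livers Cd163 had an SD of 2.47 and was well above background on 4 of 5 arrays. The median of the 11 macrophage markers was -0.15. The summed signal of the macrophage list, in multiples of the 75th percentile, was 51.8 to 119 in WT(HFD) and 61.1 to 138 in CD44KO(HFD) livers. Of 11 hepatocyte markers, Cyp2e1 and Apoh rose, and the sum was 2450 to 3290 and 3180 to 3860. Of 12 adipocyte markers 8 were tested, of which Aqp7 fell and Cebpa rose, and the sum was 587 to 889 and 675 to 892. That list holds Car3, Gpd1 and Pck1, which hepatocytes also express and which were bright in liver, so its sum there is not specific to adipocytes. Of 5 mesothelium markers tested, the keratins Krt8 (-0.80, adjusted p = 0.0178) and Krt18 (-0.50, adjusted p = 0.0365), which hepatocytes also express, fell, while Lrrn4 and Upk1b were not well above background on any liver array. The part of these cells in the droplet gene differences was not tested.

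In WAT none of these genes passed the test, and most of their values lay above rather than below those of WT(HFD) mice. Of the 9 genes tested 8 were higher and 1, Cideb, lower in CD44KO(HFD), with 9 higher after median scaling and 7 after quantile normalization. The median log2 fold change was 0.45 over these genes against -0.06 over all 27654 probes tested, and 0.93 against 0.42 after median scaling. Only 0.0398% of probes passed in WAT, 11 in all. A p under 0.05 before adjustment was reached by 4 of the 9 genes, Plin1, Plin4, Plin5 and Fitm2, and by 4111 of all probes. With array weights Fitm2 passed, and in a shared fit of all 20 arrays Plin5 and Fitm2 did.

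Fitm2 was at 0.95, 1.82, 1.77, 1.94 and 1.66 in WT(HFD) and at 2.64, 3.09, 2.54, 2.20 and 2.18 in CD44KO(HFD) WAT. The groups did not overlap, which in this direction held for 4.1% of all probes. Fitm2 was 1.87-fold higher on average (log2 0.90, SE 0.24), with an adjusted p of 0.189 by limma and an exact two-sided permutation p of 0.0079, the smallest that the 252 relabellings can give. Without WT(HFD) replicate 1 it was 0.74 (adjusted p = 0.149), and the second probe gave 0.42 (adjusted p = 0.345).

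Plin1, which is bright in WAT, was at 4.68, 5.55, 5.44, 5.55 and 5.72 in WT(HFD) and at 6.70, 6.28, 6.38, 5.77 and 5.96 in CD44KO(HFD) WAT. Again the groups did not overlap. The mean difference was 0.83 (SE 0.24, adjusted p = 0.204, limma), and 0.66 without WT(HFD) replicate 1 (adjusted p = 0.177).

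Plin4 was at 6.54, 7.51, 7.07, 7.42 and 7.41 in WT(HFD) and at 8.22, 7.91, 7.94, 7.43 and 7.77 in CD44KO(HFD) WAT. Only CD44KO(HFD) replicate 4 lay within the WT(HFD) range. Its log2 fold change of 0.66 (adjusted p = 0.238, limma) was 0.50 without WT(HFD) replicate 1. Plin5 was lower in this tissue than in liver and had 1.34, 1.83, 1.23, 1.47 and 1.39 in WT(HFD) and 2.58, 2.12, 2.01, 1.75 and 1.80 in CD44KO(HFD) WAT. Its log2 fold change of 0.60 (adjusted p = 0.223) was 0.57 without that array. Of the WAT slides, slides 4 and 5 held both genotypes. There Fitm2 differed by 1.19 and 0.80, Plin1 by 1.01 and 0.82, Plin4 by 0.86 and 0.61 and Plin5 by 0.56 and 0.53. Slide 4 held 2 arrays of each genotype, among them WT(HFD) replicate 1, and its differences were not taken without that array. Slide 5 held 3 WT(HFD) arrays and 1 CD44KO(HFD) array.

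Cidec in WAT ranged from 7.12 to 8.14 in WT(HFD) and from 7.85 to 8.49 in CD44KO(HFD), and was saturated on CD44KO(HFD) replicates 3 and 4. It differed by 0.40 (adjusted p = 0.413, limma) and by 0.23 without WT(HFD) replicate 1. Cidea ranged from -0.63 to 1.22 in WT(HFD) and from 0.54 to 0.89 in CD44KO(HFD) WAT (0.45, adjusted p = 0.547, and 0.48 without WT(HFD) replicate 1), so that here the WT(HFD) animals were the more variable, with an SD of 0.83 against 0.13. Plin2 (0.04, 95% interval -0.41 to 0.49) and Plin3 (0.12, interval -0.30 to 0.54) differed by less than the spread between replicates, also without WT(HFD) replicate 1 (0.010 and 0.088). Cideb was well above background on 3 of 5 arrays of each genotype, and its difference of -0.25 turned to 0.55 without WT(HFD) replicate 1. Fitm1 was well above background on that array alone and was not tested.

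**Figure D3:**
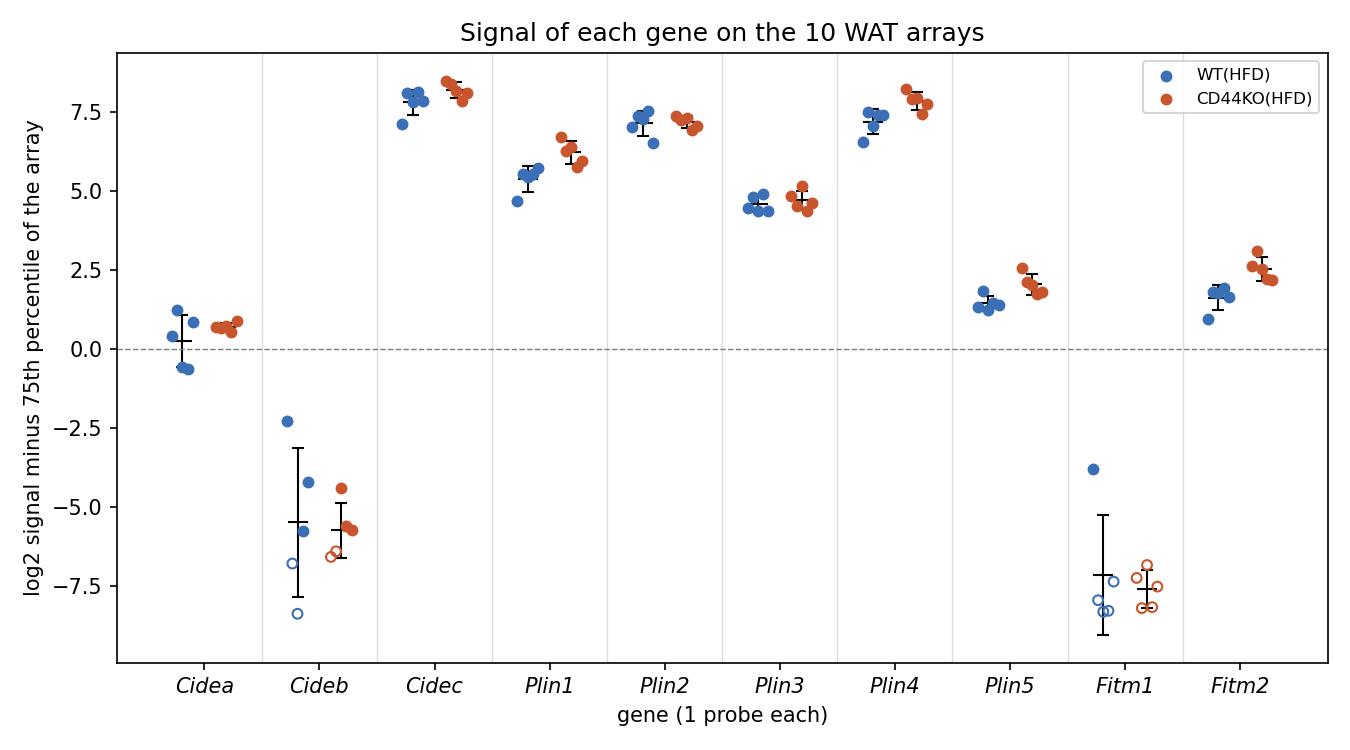
Log2 signal minus the 75th percentile of the array for the 10 genes on the 5 WT(HFD) (blue) and 5 CD44KO(HFD) (orange) WAT arrays; each point is 1 array, open points are not well above background, and bars are the mean and SD. The groups do not overlap for Plin1 and Fitm2, and the highest Cideb and Fitm1 points belong to WT(HFD) replicate 1, at -2.28 and -3.81.

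None of the genes on the droplet lists passed the test in WAT. The median log2 fold change was 0.53 for the 9 lipolysis genes, 0.33 for the 13 genes of biogenesis and triglyceride synthesis and 0.44 for 13 PPARγ-responsive genes. Marker sums differed in this tissue too. The sum of the 12 adipocyte markers was 519 to 898 in WT(HFD) and 822 to 1330 in CD44KO(HFD) WAT, that of the 12 macrophage markers 373 to 552 and 375 to 483, and that of the 8 mesothelium markers 3.54 to 18.2 and 1.5 to 4.73. The median was 0.60 for the adipocyte markers, -0.44 for the macrophage markers and -2.07 for the mesothelium markers. None of these markers was called. Their part in the droplet gene values was not tested.

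The difference between genotypes was then compared between tissues by the interaction of genotype and tissue. Of the 10 genes, all tested here, Plin5 passed, against 1.15% of 28989 probes, 0.873% in its direction. Its difference in liver minus that in WAT was -0.94 (SE 0.21, adjusted p = 0.0422, limma), since Plin5 was lower in liver and higher in WAT of CD44KO(HFD) mice. Plin4 (-2.08, SE 0.50, adjusted p = 0.0508), Fitm2 (-0.96, SE 0.27, adjusted p = 0.0798), Cidec (-2.52, SE 0.70, adjusted p = 0.0804) and Cidea (-2.60, SE 0.88, adjusted p = 0.152) did not pass and had p under 0.05 before adjustment. The difference was below 0 for 8 of the 10 genes, the exceptions being Cideb and Fitm1, and for all 10 after quantile normalization. The median was -0.90 against 0.13 over all probes, and -1.37 against -0.34 after median scaling, under which no gene of the 10 passed (Plin5 -1.41, adjusted p = 0.327, limma). Plin5 passed in 9 of 20 fits with 1 array left out, with values from -1.04 to -0.81. Without CD44KO(HFD) liver replicate 3, Cidec (-2.96, adjusted p = 0.0149), Plin4 (-2.41, adjusted p = 0.0075) and Plin5 passed.

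**Figure D4:**
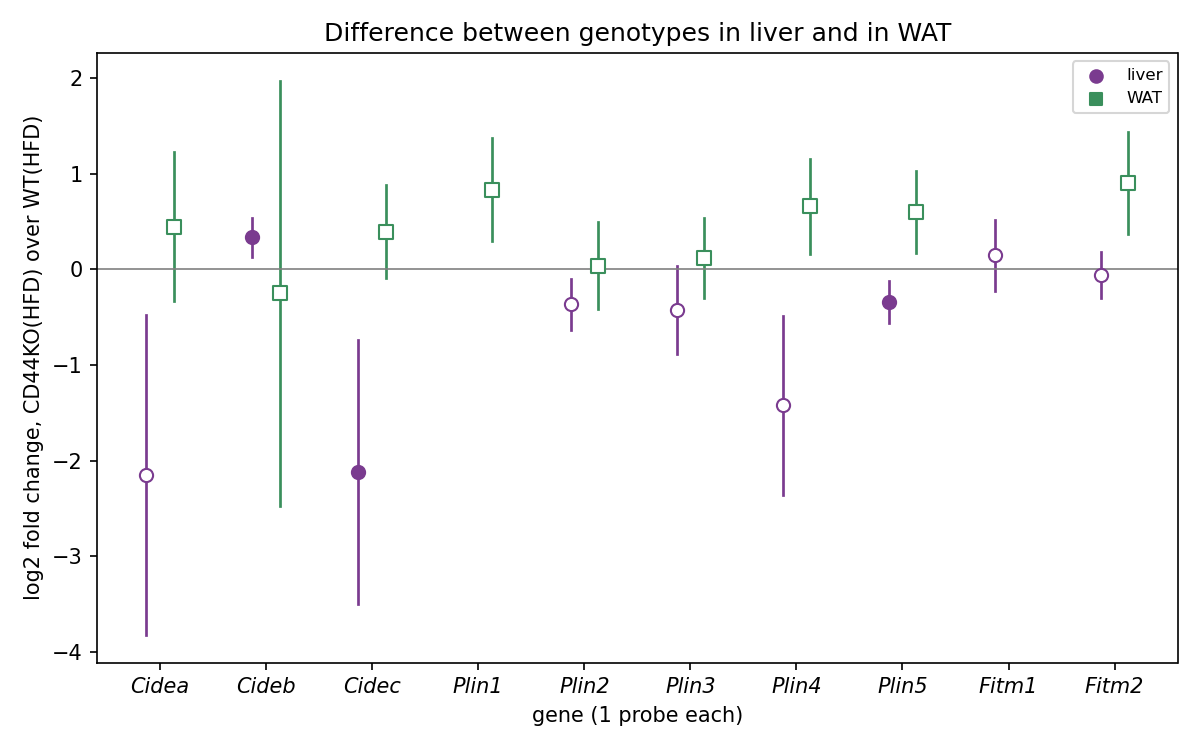
Log2 fold change of CD44KO(HFD) over WT(HFD) for each gene in liver (circles) and in WAT (squares), with 95% confidence intervals as lines; filled symbols passed the test at an adjusted p under 0.05, and Plin1 in liver and Fitm1 in WAT were not tested. Cidec, Plin4, Plin5 and Cidea lie below 0 in liver and above 0 in WAT.

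Tissue levels were compared within each genotype. Liver and WAT were on different slides and scanners, so tissue and slide cannot be told apart. Of the 10 genes 9 passed in WT(HFD) mice, 6 lower and 3 higher in WAT, and 8 in CD44KO(HFD) mice, 5 lower and 3 higher, against 68.3% (34.7% lower, 33.5% higher) and 77.0% (43.6% lower, 33.4% higher) of all probes tested. Scaling moved the balance over all probes: in WT(HFD) from 9852 lower and 9513 higher to 11094 and 6788 with normexp, and in CD44KO(HFD) from 12357 and 9476 to 10039 and 11696 after median scaling and 16007 and 5917 with normexp. The median over all probes was -0.05 and -0.24 and moved to -0.15 and 0.13 after median scaling and to -0.39 and -0.78 with normexp.

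Plin1 was on the WAT side, with a log2 difference of 10.59 in WT(HFD) and 11.44 in CD44KO(HFD) mice (adjusted p = 1.12e-06 and 2.53e-10, limma). Its liver signal was well above background on 1 of 5 arrays in each, so the size depends on how background is treated, and it was 8.02 and 8.71 with normexp. Without WT(HFD) WAT replicate 1 the first was 10.76. Cidec was 1.60 higher in WAT than in liver of WT(HFD) mice and 4.12 higher in CD44KO(HFD) mice, where 2 of the 5 WAT arrays were saturated, and Plin4 was 2.52 and 4.60 higher. Without WT(HFD) WAT replicate 1 the WT(HFD) differences were 1.77 and 2.68. For both genes the gap was wider in CD44KO(HFD) mice, which is the interaction given above.

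On the liver side stood Cidea, with a log2 difference, WAT minus liver, of -5.62 in WT(HFD) and -3.02 in CD44KO(HFD) mice. For Cideb, well above background on 3 of 5 WAT arrays of each genotype, it was -8.72 and -9.31, and -6.57 and -7.46 with normexp, and for Plin5 -3.57 and -2.63. For Fitm1 it was -8.19 in WT(HFD) mice, in whose WAT 1 of 5 arrays was well above background, and -5.15 with normexp. Without WT(HFD) WAT replicate 1 the WT(HFD) differences were -5.65 for Cidea, -9.52 for Cideb, -3.54 for Plin5 and -9.02 for Fitm1. For Fitm1 in CD44KO(HFD) mice, with no WAT signal well above background, the liver signal was at least 191.6-fold higher without background correction by normexp. This bound did not hold with normexp, where the log2 difference of Fitm1 was smaller, at -5.74. Plin2 had -1.50 and -1.10, which turned to 0.30 and 0.61 after quantile normalization, and -1.47 in WT(HFD) without that array.

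Plin3 did not pass between tissues, with -0.03 (95% interval -0.33 to 0.28, and 0.0050 without that array) in WT(HFD) and 0.52 (interval -0.02 to 1.05) in CD44KO(HFD) mice. It passed in CD44KO(HFD) mice after quantile normalization (1.40, adjusted p = 0.000149, limma), median scaling (0.88, adjusted p = 0.00733) or normexp (0.76, adjusted p = 0.00407), and in WT(HFD) mice after quantile normalization (1.03, adjusted p = 0.000311). Fitm2 differed by -0.92 in WT(HFD) mice (adjusted p = 0.0011, limma), lower in WAT, by -0.75 without WT(HFD) WAT replicate 1 (adjusted p = 2.8e-05), and by 0.04 in CD44KO(HFD) mice (interval -0.39 to 0.47). The means of Fitm2 were 2.55 in WT(HFD) liver, 2.49 in CD44KO(HFD) liver, 2.53 in CD44KO(HFD) WAT and 1.63 in WT(HFD) WAT. After median scaling the WT(HFD) difference did not pass (-1.02, adjusted p = 0.117). Its second probe differed by -0.37 in WT(HFD) (adjusted p = 0.0138, and 0.414 and 0.115 after median scaling and quantile normalization) and by 0.39 in CD44KO(HFD) mice (adjusted p = 0.102).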

How the data were processed

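RNA of 20 samples was labelled with 1 dye and hybridised to Agilent mouse 44k arrays, 45018 spots each, of which 43379 were not controls and held 41174 probes. The deposited values are each array's intensity (processed signal) from Feature Extraction 9.5.3.1, in which trends across the array had been corrected and the dimmest signals replaced by a surrogate, and the values the authors deposited carried no scaling between arrays. The deposited series table held the same intensity values. No normalization or test for the arrays was given in the sources used here. Outlier spots were left out, spots of a probe averaged, and the log2 signal was set against the 75th percentile of the array. A probe entered a test when 3 or more of the 5 arrays of either group read it well above background, and tests were run with limma 3.58.1 (R 4.3.3) within each tissue or genotype, with Benjamini-Hochberg adjustment over all of them. The interaction was fitted over all 20 arrays. Single genes were also tested by an exact permutation over 252 relabellings. The fit was tested on simulated data. Promoters came from RefSeq (GRCm38.p6), and 22951 probes were matched to symbols by accession. Genes were named where they belong to the families above, passed the test on a list or were the 5 most like a gene (1 of them is not reported here), and the list genes named without passing were picked after their values were seen. The genes and lists were chosen with earlier results of these data known. Figures were drawn with matplotlib 3.10.9. Alternatives were normexp correction, quantile and median scaling, other filters, array weights, the slide or the replicate number as a block, a fit over all arrays and each array left out.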

Additional observations from a re-analysis of the deposited data

Results flagged for a closer look

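WT(HFD) WAT replicate 1 lay far from the other 4 WT(HFD) WAT arrays for Plin1, at 4.68 (others 5.44 to 5.72), for Fitm1, at -3.81 (others -8.31 to -7.36), for Fitm2, at 0.95 (others 1.66 to 1.94), and for the second probe of Fitm2, at -1.67 (others -1.37 to -1.28). Of 44 combinations of probe and group examined these 4 stood apart by Dixon's test, which chance gives in about 1 of 20. This is the array with the highest share of spots well above background and the highest median signal.

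Plin5 differed between tissues in its response to genotype, with an interaction of -0.94 (adjusted p = 0.0422, limma) and no overlap of the groups in liver. Its difference was -0.34 in liver and 0.60 in WAT, where it did not pass (adjusted p = 0.223, limma). Without WT(HFD) WAT replicate 1 the interaction was -0.92 (adjusted p = 0.0484). It passed in 9 of 20 fits with 1 array left out, and did not pass after median scaling (adjusted p = 0.327).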

How the results depend on the processing

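Of 1176 values of single genes under other settings, over 53 results, 1046 kept their direction and side of the threshold, 62 lost the call, 38 gained it and 30 turned sign. In liver, where 3 genes passed, 1 passed after quantile normalization (Plin5), 1 after median scaling (Cideb), 0 without a filter, 5 with array weights, 5 with the slide as a random block and 0 with the replicate number as a block. Probes called in liver went from 3358 to 641 with normexp (425 lower and 216 higher, against 1420 and 1938), 1027 without a filter, 1329 with the replicate block and 723 in the fit of all 20 arrays. In WAT, where no gene and 11 probes passed, 1 gene passed with array weights and 2 in the fit of all arrays, and the probes were 35 with normexp (29 lower and 6 higher, against 8 and 3), 19 with median scaling, 3 without a filter, 2850 with array weights, 3 with the replicate block, 4 with the slide as a fixed block and 1817 in the fit of all arrays. The interaction, with 1 gene, gave 2 with normexp, 0 with median scaling (12 probes lower and 8 higher, against 253 and 81), 0 without a filter, 2 with signal required on all arrays of a group, 3 with array weights and 0 with the replicate block. The causes were not tested.

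With 1 array left out, the genes passing ranged from 0 to 6 in liver, from 0 to 0 in WAT, from 9 to 9 and from 8 to 9 between tissues in WT(HFD) and CD44KO(HFD), and from 0 to 3 for the interaction, and the probes from 924 to 4695 in liver and from 3 to 37 in WAT. Left-out arrays turned the sign of Cideb (-0.97 to 0.55) and Plin2 (-0.12 to 0.14) in WAT, Fitm2 in liver (-0.12 to 0.034), Plin3 (-0.11 to 0.027, WT(HFD)) and Fitm2 (-0.10 to 0.13, CD44KO(HFD)) between tissues, and the interaction of Cideb (-0.21 to 1.31) and Fitm1 (-0.24 to 0.89). Quantile normalization turned Cideb (0.35), Plin2 (-0.17) and Plin3 (-0.082) in WAT, Plin2 between tissues (0.30 and 0.61), Plin3 between tissues in WT(HFD) (1.03) and the interaction of Cideb (-0.12) and Fitm1 (-0.32). Array weights turned Cideb (0.80), Plin2 (-0.25) and Plin3 (-0.10) in WAT, Plin3 (0.089) and Fitm2 (-0.26) between tissues and the interaction of Cideb (-0.45) and Fitm1 (-0.19). Median scaling turned Cideb in WAT (0.23), and normexp Plin3 between tissues in WT(HFD) (0.076).

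Samples with the same number did not deviate together in every pair, with r from -0.04 to 0.42 in liver, from -0.21 to 0.09 in WAT, and between tissues from -0.19 to 0.14 in WT(HFD) and from -0.06 to 0.12 in CD44KO(HFD), so the numbers were not used as pairs, and whether a liver and a WAT sample share a mouse is not known. With the replicate block Plin3 passed between tissues in CD44KO(HFD) (0.52, adjusted p = 0.0167, limma). Signals near background limit Cideb and Fitm1 in WAT and Plin1 in liver.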

Other observations

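Brown adipocyte markers summed to 4.07 to 5.26 multiples of the 75th percentile in WT(HFD) WAT and to 6.02 to 9.37 in CD44KO(HFD) WAT. None of the 9 tested passed, and their median log2 difference was 0.57, with Cox7a1 at 0.68 and Ucp1 at -0.51. The sums of skeletal muscle markers were 4.37 to 6.03 and 6.1 to 8.87, while the median log2 difference of the 9 tested was -0.65 and none passed, and those of epididymis markers 0.0476 to 2.26, the highest in replicate 1, and 0.0431 to 0.26. In liver the muscle marker Acta1, well above background on 3 of 5 CD44KO(HFD) livers, fell (-0.90, adjusted p = 0.0254, limma). The other muscle markers tested there lay above 0 and did not pass, and the median of the 5 was 0.12. The sums in liver were 13.6 to 29.8 and 20.1 to 67.6 for brown adipocyte markers. For skeletal muscle markers they were 0.452 to 0.62 and 0.477 to 0.603. For mesothelium markers, which include the hepatocyte keratins Krt8 and Krt18, they were 300.0 to 435 and 206 to 332. For epididymis markers they were 0.18 to 0.381 and 0.182 to 0.256. The brown adipocyte sum in liver includes Elovl3, which was bright there, at 3.87 in WT(HFD) and 4.71 in CD44KO(HFD) livers (adjusted p = 0.206, limma). Ucp1, Zic1 and Otop1 were not well above background on any liver array, so that sum is not specific to brown adipocytes. Hepatocyte markers in WAT summed to 5.32 to 41.8 in WT(HFD) and 13.8 to 60.9 in CD44KO(HFD).

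The interaction of genotype and tissue was also called for Mogat2 (-2.96, adjusted p = 0.0084, limma), Tmem43 (-1.31, adjusted p = 0.0296), Aqp7 (-2.56, adjusted p = 0.0368), Trem2 (-2.24, adjusted p = 0.0388), Pdk4 (-1.90, adjusted p = 0.0425) and Acta1 (-1.18, adjusted p = 0.0464), all lower in liver and none called in WAT.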
